A study of Mus musculus with 21 samples.

Results

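The genes described here are 8 members of the Sox family of transcription factors: Sox2, Sox17, Sox21, Sox15, Sox4, Sox11, Sox12 and Sox13. They were taken by name from a deposited table of 16443 genes, and all 8 were found there. The table covers 21 RNA sequencing libraries, all made from 2TS22C, mouse embryonic stem cells known for a Sox2 supply that doxycycline switches off. Of the lines, 3 were transduced with a lentivirus carrying a rescue factor, treated with doxycycline (DOX), and labelled as having endogenous SOX2 silenced. The factors were SOX17FNV (FNV below), an engineered form of SOX17, then miniSOX, of which the labels hold no more than the name, and SOX2 itself. Non-transduced cells (NTC), labelled WT and without DOX, are the control that the series text names. In a comparison with NTC, the effects of lentivirus, DOX, silencing and rescue factor thus cannot be told apart. Cells were cultured either with serum and LIF (SL) or with 2i added, inhibitors of MEK and GSK3 that hold cells in a naive state. In 2i there are 4 FNV, 2 miniSOX, 4 SOX2 and 3 NTC libraries, and in SL there are 2 libraries of each line. The sources used here do not give the promoter that drives the rescue factors, nor whether a line is a clone or a pool.

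SOX proteins bind DNA through a shared HMG box and usually act with a partner factor on a composite motif. In embryonic stem cells SOX2 pairs with OCT4 (Pou5f1) to hold the pluripotent state. SOX17, of subgroup F, normally directs endoderm formation with OCT4 on a differently spaced motif. SOX21, of subgroup B2, binds sites like those of SOX2 and often acts as a repressor, and its gene is a known target of SOX2 in mouse embryonic stem cells. SOX15, of subgroup G, can also pair with OCT4. SOX4, SOX11 and SOX12 form subgroup C and are best known in neural and mesenchymal progenitors. SOX13, of subgroup D, has no known transactivation domain and is known as a modulator of TCF/LEF activity.

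How far the genes differ in the coding bases of the part that reads DNA is shown by their own letters. A base that differs need not change the amino acid, and amino acids were not compared. The coding bases of the HMG box were read from GENCODE M21 transcripts (GRCm38, the mm10 build) over 210 bases for Sox2, Sox21, Sox15, Sox4, Sox11, Sox12 and Sox13. The genes lie apart from each other, at chr3:34650405-34652461 (Sox2), chr1:4490931-4497354 (Sox17), chr14:118233232-118237030 (Sox21), chr11:69655314-69656727 (Sox15), chr13:28948919-28953713 (Sox4), chr12:27334264-27342574 (Sox11), chr2:152393611-152398063 (Sox12) and chr1:133382303-133424377 (Sox13). The Sox2 box lies at chr3:34650548-34650757 on the plus strand. The opening 48 bases of the box serve to set these 7 genes side by side, with capitals for each base that differs from Sox2.
Sox2: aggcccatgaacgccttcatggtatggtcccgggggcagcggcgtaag
Sox21: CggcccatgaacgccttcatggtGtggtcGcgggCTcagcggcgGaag
Sox15: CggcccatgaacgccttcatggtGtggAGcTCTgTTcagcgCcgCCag
Sox4: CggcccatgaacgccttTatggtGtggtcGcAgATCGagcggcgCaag
Sox11: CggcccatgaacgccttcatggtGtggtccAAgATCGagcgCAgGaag
Sox12: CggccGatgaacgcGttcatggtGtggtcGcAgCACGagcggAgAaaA
Sox13: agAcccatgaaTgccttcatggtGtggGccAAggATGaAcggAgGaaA
Over this stretch Sox21 differs from Sox2 at 6 bases, the fewest of the 6, and Sox12 and Sox13 at 13, the most. Over the whole box Sox21 shares 185 bases (88.1%) with Sox2, Sox15 155 (73.8%), Sox4 146 (69.5%), Sox11 144 (68.6%), Sox12 142 (67.6%) and Sox13 133 (63.3%). The closest pair among these genes is Sox4 and Sox11 of subgroup C, with 191 of 210 bases (91%) shared. Sox12 shares 180 with Sox4 and 178 with Sox11, fewer than Sox21 with Sox2.

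These likenesses bear on how reads could be shared. Of the distinct 31-base words of the Sox2 transcripts, 18 of 2027 (0.888%) occur in another gene, namely Sox1, Sox21 and Sox3, so mixing of Sox2 reads with other members is limited to short stretches of the box. Overlap on the opposite strand is larger: 774 of 4931 words of Sox17 (15.7%) lie in Gm37587, 702 of 3769 words of Sox21 (18.6%) occur elsewhere, mostly in the lincRNA Gm4675, and so do 2607 of 4765 words of Sox4 (54.7%), mostly in the lincRNA Gm26735. Whether reads were counted by strand is unknown here, so sense and antisense RNA of these 3 genes cannot be told apart. Reads of a rescue transgene and of the endogenous gene also fall under a single name.

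The deposited values are whole numbers normalized between libraries, with totals between 14044316 and 14047262 and a median gene at 214, so sequencing depth is unknown. They are not known to be scaled by transcript length, so no level is compared between genes. The stem cell markers Pou5f1, Nanog, Zfp42 and Esrrb were high in all 21 libraries, with lowest values of 6245, 4525, 4034 and 3265. The libraries were split into 2 sets by the organism label, which is less complete in the first, and no label calls the sets batches. The first holds replicates 1 and 2 of FNV, SOX2 and NTC in both media, and the second holds 5 libraries in 2i called p21 or p31 (FNV and SOX2 p21 and p31, NTC p31) and all 4 of miniSOX. NTC p31 stood apart from NTC replicates 1 and 2 in several members. In the second set the titles of the FNV, SOX2 and NTC libraries count biological replicates from 2 on, while those of the first set give plain replicate numbers. Replicates 1 and 2 of a group may thus be repeats of 1 biological replicate, and no label says that they came from separate cultures. The log2 difference between them had an SD across genes with values of 500 to 1500 of 0.107 to 0.301, against 0.281 and 0.436 between p21 and p31. P-values measure the spread between these libraries, which may be technical. Differences were tested with limma on log2(value + 1) over all genes with a term for the set, and an adjusted p (Benjamini-Hochberg, all genes) under 0.05 counts as a change. In bulk RNA, fewer cells expressing a gene and less RNA per cell cannot be told apart.

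**Figure D1:**
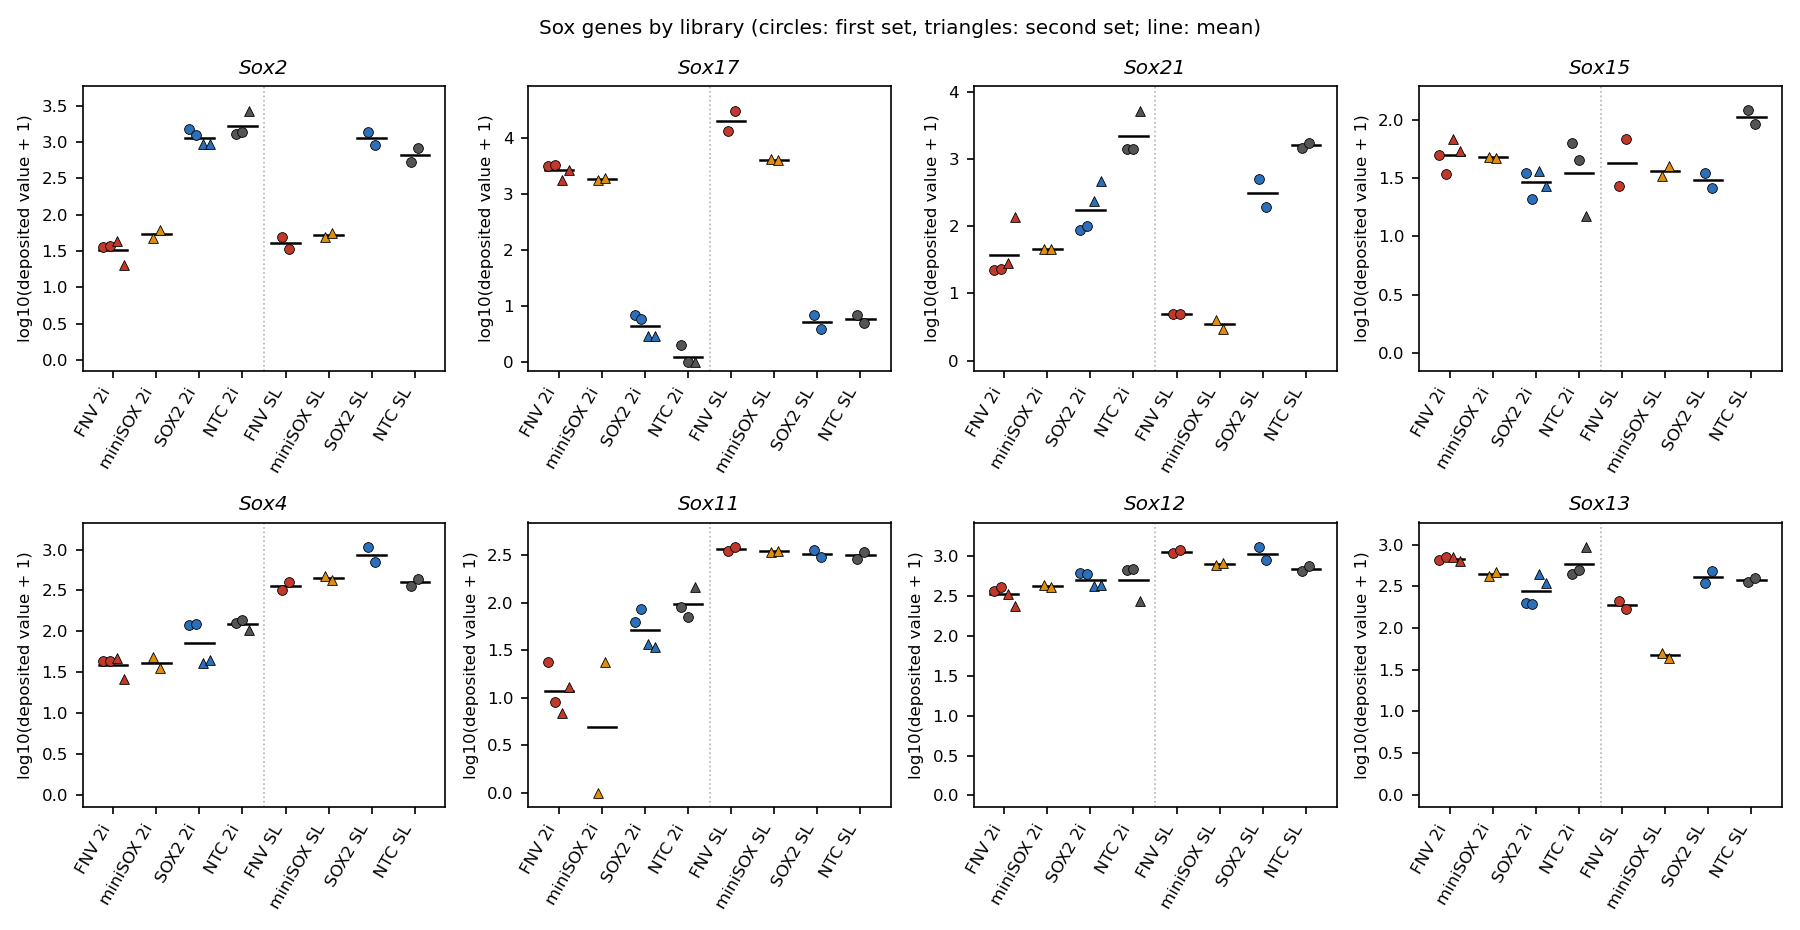
Deposited value of each member in each library, as log10(value + 1), by line and medium; circles are the first set, triangles the second, and the line is the mean. Sox2 is low and Sox17 high in the FNV and miniSOX libraries, Sox21 is highest in NTC, and Sox4, Sox11 and Sox12 lie higher in SL than in 2i in most lines.

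The 8 genes were first counted against the share of all genes that passed, given in brackets. In FNV against NTC in 2i, 1 member was higher, 5 were lower and 2 did not pass (39.7% of all genes, 19.7% higher and 20% lower). In miniSOX against NTC in 2i 1 was higher, 5 were lower and 2 did not pass (27.7% of all genes, 14.3% higher and 13.5% lower). In SOX2 against NTC in 2i 1 was higher, 2 were lower and 5 did not pass (28.7% of all genes, 14.4% higher and 14.3% lower). FNV against SOX2 in 2i gave 2 higher, 5 lower and 1 not passing (25.2% of all genes, 12.4% higher and 12.9% lower), among them Sox2 and Sox17, which the lines were built to exchange. MiniSOX against SOX2 in 2i gave 1 higher, 3 lower and 4 not passing (14.9% of all genes, 7.32% higher and 7.57% lower). MiniSOX against FNV in 2i gave 0 higher, 1 lower, which was Sox13, and 7 not passing (7.66% of all genes, 3.81% higher and 3.85% lower). In SOX2 against NTC and in miniSOX against FNV the members' share lies near the background, and in the other 4 comparisons in 2i it lies above it. Sox2 and Sox17, which show what the lines carry, are among the calls in each of these 4. The higher share is thus partly built into the lines and is not a result about the family.

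In SL, FNV against NTC gave 2 higher, 3 lower and 3 not passing (30% of all genes, 14.2% higher and 15.8% lower). MiniSOX against NTC in SL gave the same counts (19.6% of all genes, 9.44% higher and 10.2% lower). SOX2 against NTC in SL gave 1 higher, 2 lower and 5 not passing (15% of all genes, 7.35% higher and 7.63% lower). FNV against SOX2 in SL gave 1 higher, 4 lower and 3 not passing (21.4% of all genes, 10.2% higher and 11.2% lower). MiniSOX against SOX2 in SL gave 1 higher, 3 lower and 4 not passing (21.6% of all genes, 10.4% higher and 11.2% lower). MiniSOX against FNV in SL gave 0 higher, 3 lower and 5 not passing (15.2% of all genes, 7.4% higher and 7.8% lower). All miniSOX libraries belong to the second set and the other SL libraries to the first, so in SL a fitted miniSOX difference includes a set term estimated in 2i. Comparisons that share a control share its libraries, so their counts are not independent.

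Over all comparisons 85 member calls were made, and 2 other fits show how far they lean on the replicates and the sets. With no set term 58 of the 85 held. With replicates 1 and 2 averaged to 1 sample 25 held. These were Sox2, Sox17, Sox21 and Sox11 in FNV and in miniSOX against NTC in 2i, Sox17 in SOX2 against NTC in 2i, and Sox2 and Sox17 in FNV against SOX2 in 2i. They were also Sox17 in miniSOX against SOX2 in 2i, Sox17 in FNV and miniSOX against NTC and against SOX2 in SL, and Sox21 in FNV and miniSOX against NTC in SL. Between media they were Sox17, Sox4 and Sox11 in FNV, Sox4, Sox11 and Sox13 in miniSOX, and Sox4 in SOX2. No other member call held with the replicates averaged. Of the calls named below for genes outside the 8, Nr0b1, Tubb3 and Tcf7 in FNV against SOX2 in 2i and Gata6 in both media held in that fit, and those of Sox6, Klf2, Fgf4 and Gm4675, and of Nr0b1 and Tcf7 in SL, did not.

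**Figure D2:**
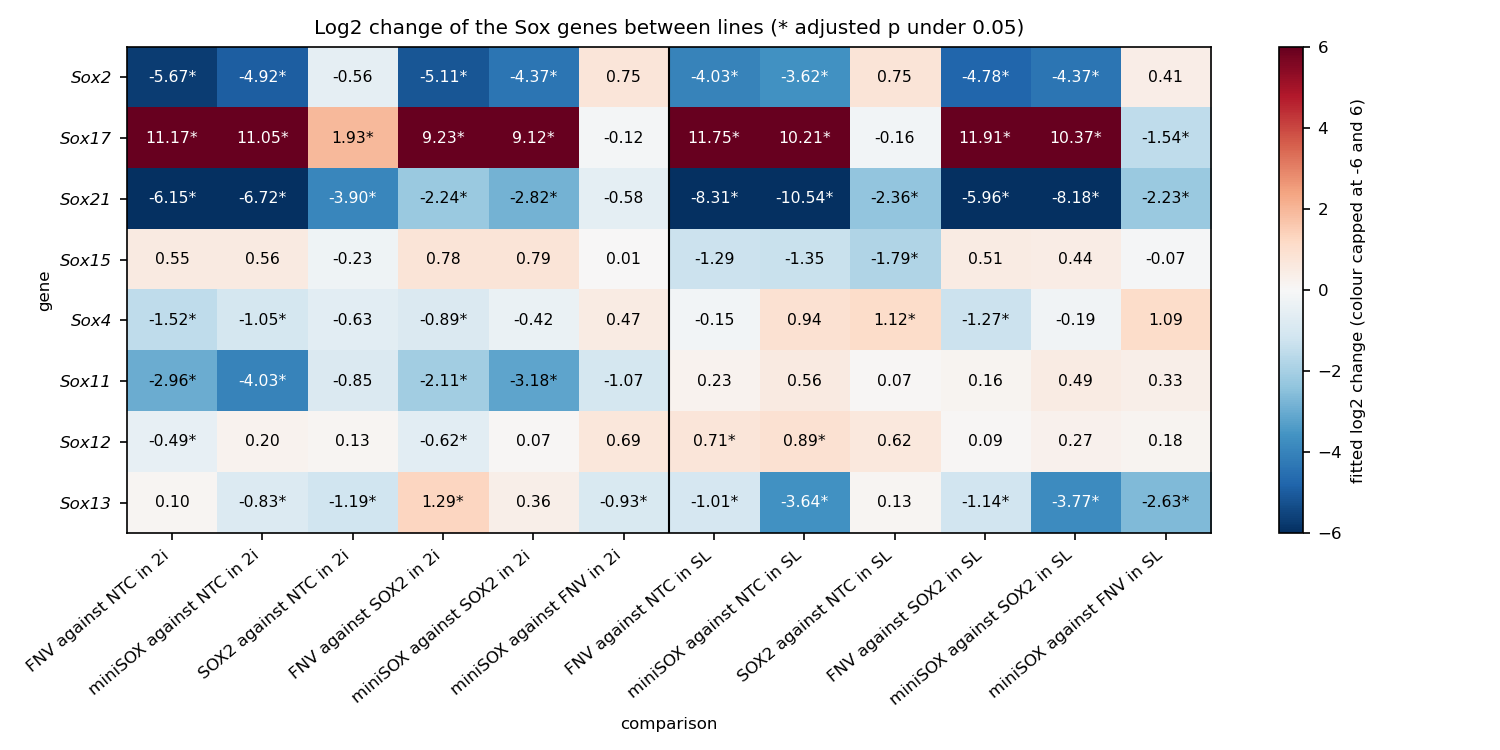
Fitted log2 change of each member between lines, in 2i on the left and in SL on the right; each cell gives the value, with an asterisk where the adjusted p was under 0.05. Sox21 was lower in all rescued lines than in NTC in both media, down to -10.54 in miniSOX against NTC in SL (-8.84 with no set term), and Sox15 passed in 1 of the 12 comparisons.

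Sox2 and Sox17 show what the lines carry. Sox2 RNA had 35, 36, 43 and 19 in the FNV libraries and 47 and 60 in the miniSOX libraries in 2i, against 1509, 1251, 939 and 947 in SOX2 and 1310, 1362 and 2697 in NTC. In SL it had 49 and 33 in FNV and 48 and 55 in miniSOX, against 1389 and 921 in SOX2 and 533 and 843 in NTC. The FNV and miniSOX libraries lie far below the others without overlap, and NTC p31 is the highest of all. Sox2 did not pass in SOX2 against NTC in either medium, with a log2 change of -0.56 ± 0.32 (SE, adjusted p = 0.211) in 2i and 0.75 ± 0.41 (adjusted p = 0.238) in SL. FNV was lower than SOX2 by a log2 change of -5.11 ± 0.29 in 2i and -4.78 ± 0.41 in SL (adjusted p 3.55e-08 and 3.12e-06).

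Of the 4 lines, the control passed a test of medium for Sox2 RNA. The log2 change of 2i against SL was 1.35 ± 0.38 in NTC (adjusted p = 0.0186), against -0.29 ± 0.38 in FNV, 0.05 ± 0.41 in miniSOX and 0.04 ± 0.38 in SOX2. The difference of this change, FNV minus NTC, passed (-1.65 ± 0.52, adjusted p = 0.0297), and SOX2 minus NTC did not (-1.31 ± 0.52, adjusted p = 0.0935). Without NTC SL replicate 1 the change in NTC was 1.02 (adjusted p = 0.188). The FNV minus NTC difference was -1.11 (adjusted p = 0.0823) without NTC p31, -1.32 (adjusted p = 0.144) without NTC SL replicate 1 and -1.37 (adjusted p = 0.124) without FNV SL replicate 1.

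Sox17, the gene of the endoderm factor from which FNV was made, had 3160, 3301, 1792 and 2659 in FNV and 1813 and 1953 in miniSOX in 2i, against 6, 5, 2 and 2 in SOX2 and 1, 0 and 0 in NTC. The SL values were 13693 and 30391 in FNV and 4179 and 4138 in miniSOX, against 6 and 3 in SOX2 and 6 and 4 in NTC. The row was thus high in all 10 libraries of the FNV and miniSOX lines, and at 6 or below in the other 11. FNV carried less Sox17 RNA in 2i than in SL (log2 change -2.56 ± 0.35, adjusted p = 4.15e-05), and so did miniSOX (-1.14 ± 0.38, adjusted p = 0.0324).

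In SL miniSOX held less Sox17 RNA than FNV. MiniSOX against FNV had a log2 change of -1.54 ± 0.45 in SL (adjusted p = 0.0326) and of -0.12 ± 0.35 in 2i (adjusted p = 0.88), and the difference of the 2i against SL change, miniSOX minus FNV, did not pass (1.42 ± 0.52, adjusted p = 0.0944; 0.0275 without FNV SL replicate 1). The SL difference rests on few libraries: it was -0.97 (adjusted p = 0.204) without FNV SL replicate 2, at 30391 the highest, and adjusted p was 0.106 and 0.105 without miniSOX SL replicates 1 and 2. It was -1.12 (adjusted p = 0.457) with 0.1 added before the logarithm, and -2.29 (adjusted p = 0.00622) with no set term. The 2i against SL change in miniSOX lost its call without any of its 4 libraries (adjusted p up to 0.129) and with no set term (adjusted p = 0.11). In SOX2 against NTC in 2i the Sox17 row also passed (1.93 ± 0.30, adjusted p = 0.00028), but at values of 0 to 6 this is near the floor of the scale, and with 10 added before the logarithm the adjusted p was 0.117.

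Sox21 codes for a repressor, and of the genes compared it was closest to Sox2 in the bases of its box. It was lower in every rescued line than in the control, which had neither lentivirus nor DOX, in both media. In 2i it had 21, 22, 27 and 135 in FNV and 44 and 44 in miniSOX, then 87, 99, 232 and 472 in SOX2, against 1415, 1399 and 5155 in NTC. SL libraries held 4 and 4 in FNV and 3 and 2 in miniSOX, then 501 and 191 in SOX2, against 1456 and 1737 in NTC. The libraries of NTC overlap with those of no rescued line in either medium, and in SL the SOX2 libraries lie between NTC and the near absence in FNV and miniSOX.

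SOX2-rescued cells held less Sox21 RNA than NTC, and their Sox2 RNA did not pass a test of difference, which does not show it to be equal. In 2i the log2 change of Sox2 in SOX2 against NTC was 0.04 in the first set. It was -1.515 in the second, where p31 is the only NTC library, so Sox2 RNA was near that of NTC in the first set only. The log2 change of Sox21 in SOX2 against NTC was -3.90 ± 0.43 in 2i (adjusted p = 1.8e-05) and -2.36 ± 0.55 in SL (adjusted p = 0.0107). Within the sets, the 2i value was -3.91 (adjusted p = 0.000107) in the first and -3.96 (adjusted p = 0.0512) in the second. The SL value was -1.66 (adjusted p = 0.119) without SOX2 SL replicate 2, -2.23 (adjusted p = 0.0694) without NTC SL replicate 2 and -2.36 (adjusted p = 0.135) with no set term.

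Relative to Sox2, Sox21 was lower in the same SOX2 cells than in NTC. Per 100 units of Sox2 value, the SOX2 libraries held 5.77, 7.91, 24.7 and 49.8 units of Sox21 value in 2i, against 108, 103 and 191 in NTC. In SL they held 36.1 and 20.7, against 273 and 206 in NTC. The ratio was below 50 in all 6 SOX2 libraries and above 100 in all 5 NTC libraries, and it is a ratio of deposited values, not of molecules. Sox21 was higher in the second set than in the first in each line with both sets in 2i, by 1.46 in FNV, 1.82 in SOX2 and 1.87 in NTC on the log2 scale. In FNV this rests mostly on p31 at 135, since p21 was at 27, against 21 and 22 in the first set. In NTC it rests on p31 alone, at 5155. Sox2 moved by -0.30 in FNV, -0.54 in SOX2 and 1.01 in NTC between the same sets.

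**Figure D3:**
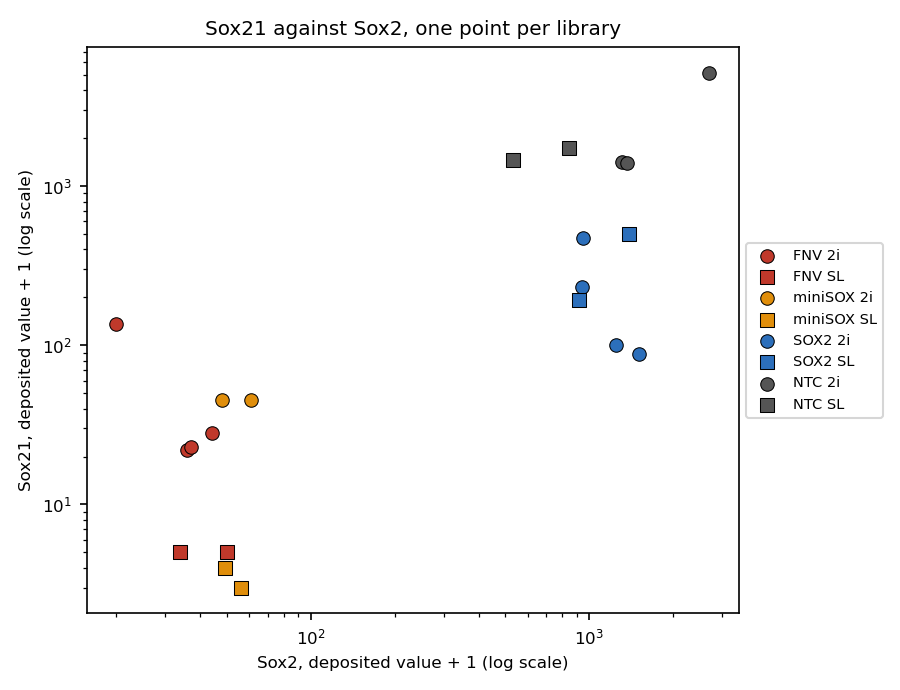
Sox21 against Sox2 in each library, as deposited value + 1 on log axes; colour gives the line, circles 2i and squares SL. In 2i the SOX2 libraries have Sox2 values of 939 to 1509, against 1310 to 2697 in NTC. In SL they have 921 and 1389, above the 533 and 843 of NTC. In Sox21 they lie below NTC, at 87 to 501 against 1399 to 5155.

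FNV and miniSOX went further down in the fit. In 2i FNV p31, at 135, yet lay above SOX2 replicates 1 and 2, at 87 and 99. Sox21 in FNV against SOX2 had a log2 change of -2.24 ± 0.39 in 2i (adjusted p = 0.00073) and -5.96 ± 0.55 in SL (adjusted p = 6.63e-06). In miniSOX against SOX2 it was -2.82 ± 0.51 in 2i (adjusted p = 0.00209, and 0.138 with no set term) and -8.18 ± 0.65 in SL (adjusted p = 1.77e-06), and the SL value was -6.49 with no set term. In the second set alone neither 2i call held, with -2.43 (adjusted p = 0.141) for FNV and -2.88 (adjusted p = 0.0789) for miniSOX. The gap between FNV and SOX2 differed by medium: 2i against SL was 2.05 ± 0.51 in FNV and -1.66 ± 0.51 in SOX2, and the difference of 3.71 ± 0.68 passed (adjusted p = 0.00171). The change in SOX2 was -0.97 (adjusted p = 0.228) without SOX2 SL replicate 1 and -0.81 (adjusted p = 0.453) with no set term, and the change in FNV starts from values of 4, where adding 10 before the logarithm gave 0.99 (adjusted p = 0.103).

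MiniSOX and FNV were close in Sox21. In 2i their log2 difference was -0.58 ± 0.51 (adjusted p = 0.548), though -1.24 (adjusted p = 0.0413) without FNV p21. In SL the fitted log2 change of miniSOX against FNV was -2.23 ± 0.65 (adjusted p = 0.0321), yet the libraries held 3 and 2 against 4 and 4. With no set term it was -0.53 (adjusted p = 0.75), and leaving out any of the 4 libraries ended the call (adjusted p up to 0.133). FNV p31 in 2i, at 135, lies apart from the other 3 FNV libraries at 21 to 27. The antisense neighbour Gm4675 had 12 or less in all FNV and miniSOX libraries, 11 to 27 in SOX2 and 22 to 28 in NTC. It was lower in FNV than in NTC in 2i (-1.57 ± 0.51, adjusted p = 0.0228) and in SL (-3.81 ± 0.66, adjusted p = 0.000606), the 2i call ending without NTC replicate 1, NTC p31 or FNV p21 (adjusted p up to 0.0719), and its part in the Sox21 values was not tested.

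The subgroup C genes Sox4, Sox11 and Sox12 shared a lower level in 2i than in SL. All 3 were lower in 2i in FNV, where 2 members were higher, 4 lower and 2 did not pass (40.6% of all genes, 20.3% higher and 20.4% lower). All 3 were also lower in miniSOX, with 2 members higher, 4 lower and 2 not passing (33.4% of all genes, 17% higher and 16.4% lower), and in SOX2, with 0 higher, 5 lower and 3 not passing (44.9% of all genes, 22.3% higher and 22.5% lower). In NTC, with 1 higher, 3 lower and 4 not passing (24.6% of all genes, 11.9% higher and 12.8% lower), Sox4 was the only one of the 3 to pass.

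Sox4, which codes for a subgroup C activator, had 42, 43, 46 and 25 in FNV, 47 and 35 in miniSOX and 120, 121, 40 and 44 in SOX2, against 124, 138 and 104 in NTC, all in 2i. In SL it had 323 and 396 in FNV, 477 and 420 in miniSOX and 1065 and 704 in SOX2, against 360 and 437 in NTC. Every SL library lies above every 2i library, and the SOX2 libraries of the second set in 2i sit at the level of FNV while those of the first sit at the level of NTC. The log2 change of 2i against SL was -2.82 ± 0.32 in FNV (adjusted p = 6.35e-06), -3.43 ± 0.34 in miniSOX (adjusted p = 3.23e-06), -3.20 ± 0.32 in SOX2 (adjusted p = 2.21e-06) and -1.45 ± 0.32 in NTC (adjusted p = 0.00455).

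The fall of Sox4 in 2i was larger in FNV and SOX2 than in NTC. The difference of the medium change was -1.37 ± 0.44 for FNV minus NTC (adjusted p = 0.0309) and -1.76 ± 0.44 for SOX2 minus NTC (adjusted p = 0.012). The FNV minus NTC difference lost its call without any of 6 libraries: FNV 2i replicates 1 and 2, FNV SL replicate 2, NTC p31, and NTC SL replicates 1 and 2 (adjusted p up to 0.117). The SOX2 minus NTC difference lost it without SOX2 SL replicate 1 (-1.46, adjusted p = 0.0653) or NTC SL replicate 1 (-1.62, adjusted p = 0.0566). With no set term the differences had adjusted p of 0.0978 and 0.06.

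Between lines, Sox4 was lower in FNV than in NTC in 2i (-1.52 ± 0.27, adjusted p = 0.000368), in the first set (-1.60) and in the second (-1.59). It was lower in FNV than in SOX2 in 2i (-0.89 ± 0.24, adjusted p = 0.0149) and in SL (-1.27 ± 0.34, adjusted p = 0.017), and higher in SOX2 than in NTC in SL (1.12 ± 0.34, adjusted p = 0.0405). These 3 calls each ended with no set term (adjusted p = 0.0815, 0.0923 and 0.174) and when single libraries were left out. For FNV against SOX2 in 2i this held for replicates 1 and 2 of either line (adjusted p up to 0.06), and the value was -1.48 in the first set and -0.30 in the second. In SL it held for FNV replicates 1 and 2 and SOX2 replicate 1 (adjusted p up to 0.14), and for SOX2 against NTC for NTC replicates 1 and 2 and SOX2 replicate 1 (adjusted p up to 0.252). MiniSOX against NTC in 2i passed as well (-1.05 ± 0.34, adjusted p = 0.0351), but not without NTC replicate 2, NTC p31 or either miniSOX library (adjusted p up to 0.208).

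Sox11, the subgroup C gene nearest to Sox4 in its box, had 23, 8, 6 and 12 in FNV, 0 and 23 in miniSOX and 62, 85, 36 and 33 in SOX2, against 88, 69 and 143 in NTC, all in 2i. In SL it had 348 and 381 in FNV, 340 and 348 in miniSOX and 359 and 296 in SOX2, against 285 and 339 in NTC. The 4 lines were close together in SL and apart in 2i, where FNV and miniSOX lay below SOX2 and NTC without overlap. In FNV against NTC in 2i the log2 change was -2.96 ± 0.75 (adjusted p = 0.00586), against 0.23 ± 0.98 in SL (adjusted p = 0.916).

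In FNV, 2i against SL changed Sox11 by -4.74 ± 0.90 (adjusted p = 0.000653), in miniSOX by -6.14 ± 0.98 (adjusted p = 0.000228) and in SOX2 by -2.47 ± 0.90 (adjusted p = 0.0365). The change in NTC did not pass (-1.56 ± 0.91, adjusted p = 0.243), nor did the difference FNV minus NTC (-3.19 ± 1.23, adjusted p = 0.0725). Within the first set these were -1.98 (adjusted p = 0.0049) and -2.65 (adjusted p = 0.00661), both past the threshold. The Sox11 values in 2i moved with single libraries. Without miniSOX replicate 1, listed at 0, miniSOX against NTC was -1.73 (adjusted p = 0.068), against SOX2 -0.88 (adjusted p = 0.442), and the medium change in miniSOX was -3.85. Without miniSOX replicate 2, miniSOX against NTC was -6.32 and against SOX2 -5.47. Without NTC p31, FNV against NTC was -2.32 (adjusted p = 0.0587) and miniSOX against NTC -3.17 (adjusted p = 0.0656). FNV against SOX2 in 2i (-2.11 ± 0.69, adjusted p = 0.0366) lost its call without any of 6 of its 8 libraries, all but FNV replicate 1 and SOX2 p31 (adjusted p up to 0.108). The change in SOX2 lost it without any of 5 of its 6, all but SOX2 2i replicate 2 (adjusted p up to 0.145).

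Sox12, a weaker activator of the same subgroup, had 371, 407, 336 and 241 in FNV, 439 and 407 in miniSOX and 628, 593, 423 and 432 in SOX2, against 681, 695 and 274 in NTC, all in 2i. In SL it had 1094 and 1216 in FNV, 791 and 825 in miniSOX and 1303 and 904 in SOX2, against 658 and 752 in NTC. The FNV libraries were the lowest group mean in 2i and the highest in SL, where they overlapped with SOX2, while NTC replicates 1 and 2 were alike in both media. The 2i against SL change was -1.45 ± 0.20 in FNV (adjusted p = 5.02e-05), -0.93 ± 0.22 in miniSOX (adjusted p = 0.00451) and -0.74 ± 0.20 in SOX2 (adjusted p = 0.00827), against -0.24 ± 0.21 in NTC (adjusted p = 0.446). The change in miniSOX did not pass with no set term (adjusted p = 0.0773).

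The difference of the Sox12 change, FNV minus NTC, was -1.20 ± 0.28 (adjusted p = 0.00545), and it kept its call without any 1 of the 11 libraries, with -1.52 to -1.09, though not with no set term (adjusted p = 0.0618). FNV was lower than SOX2 in 2i (-0.62 ± 0.16, adjusted p = 0.00944), a call that held in all 8 fits with a library left out but not with no set term (adjusted p = 0.122). FNV against NTC in 2i (-0.49 ± 0.17, adjusted p = 0.0329) was less firm: the value was -0.82 in the first set and 0.054 (adjusted p = 0.915) in the second, where NTC p31 was at 274, and the call ended without FNV replicate 1, 2 or p31 or NTC replicate 1 or 2 (adjusted p up to 0.142) and with no set term (adjusted p = 0.116). In SL, FNV against NTC (0.71 ± 0.22, adjusted p = 0.0246) and miniSOX against NTC (0.89 ± 0.26, adjusted p = 0.0257) lost their calls without any of their 4 libraries, with adjusted p up to 0.143 and 0.12, and with no set term the FNV call ended (adjusted p = 0.195) and the miniSOX value was 0.20 (adjusted p = 0.757). The change in SOX2 was -0.48 (adjusted p = 0.141) without SOX2 SL replicate 1.

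**Figure D4:**
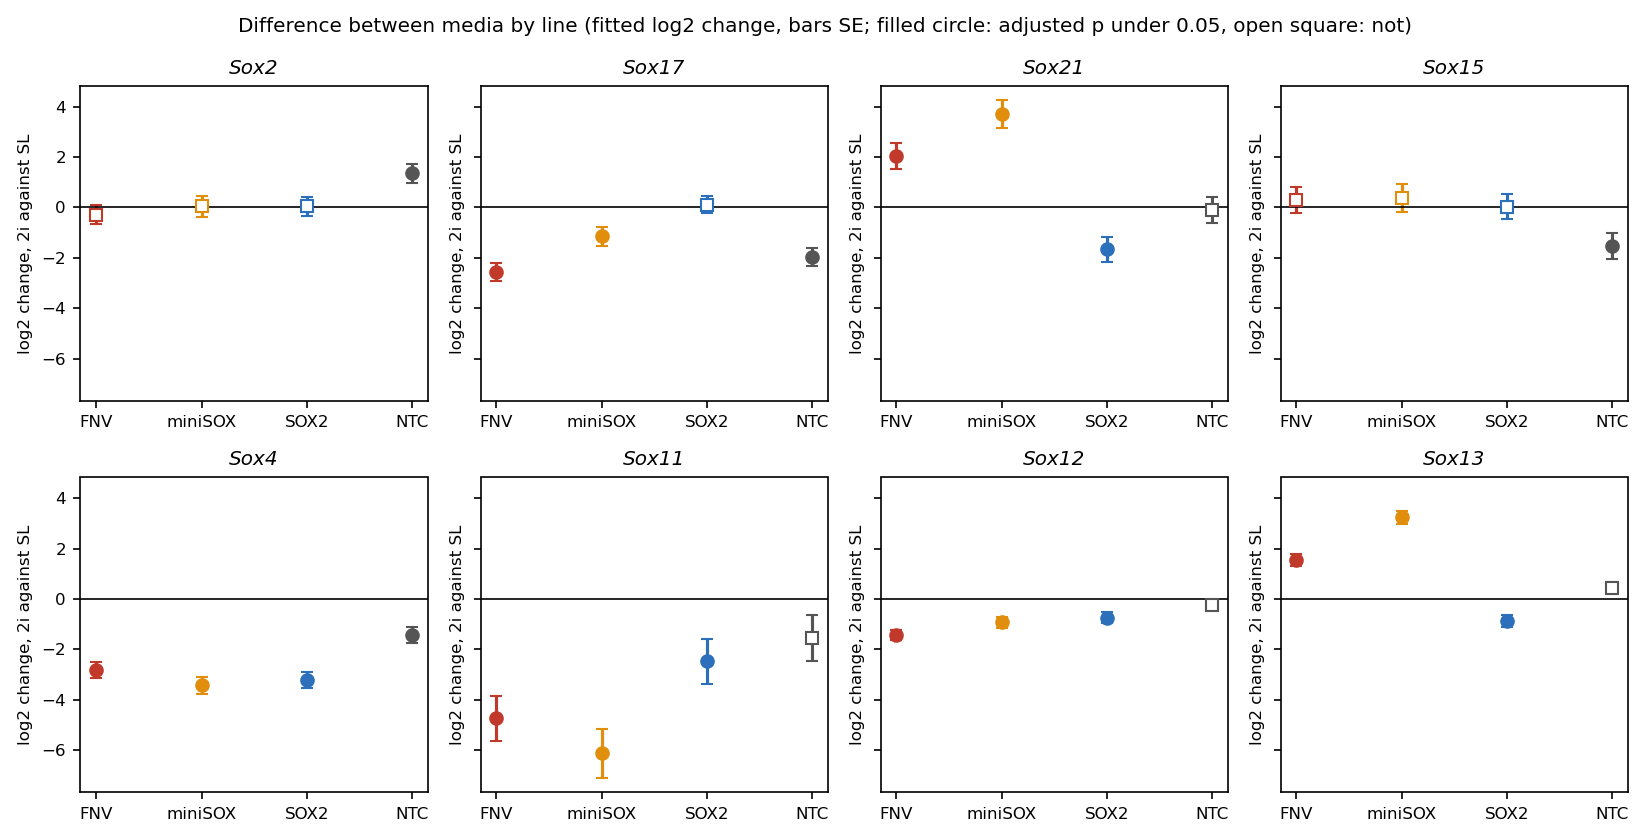
Fitted log2 change of 2i against SL for each member in each line, with SE; filled circles passed at an adjusted p under 0.05 and open squares did not. Sox4, Sox11 and Sox12 lie below 0 in all 4 lines, and Sox13 lies above 0 in FNV (1.54) and miniSOX (3.24) and below 0 in SOX2 (-0.89).

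Sox13, the subgroup D gene, moved in opposite directions with the medium in different lines. In 2i it had 653, 706, 713 and 643 in FNV, 422 and 463 in miniSOX and 196, 192, 449 and 345 in SOX2, against 439, 493 and 930 in NTC. The values in SL were 208 and 167 in FNV, 49 and 43 in miniSOX and 349 and 487 in SOX2, against 354 and 402 in NTC. FNV was the highest group mean in 2i, although NTC p31 was the highest library, and it lay under SOX2 and NTC in SL, and miniSOX in SL was the lowest group of all.

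The log2 change of Sox13 in 2i against SL was 1.54 ± 0.24 in FNV (adjusted p = 0.00014) and 3.24 ± 0.26 in miniSOX (adjusted p = 4.55e-07). It was -0.89 ± 0.24 in SOX2 (adjusted p = 0.00805), against 0.42 ± 0.25 in NTC (adjusted p = 0.238). Tests of the differences passed for FNV minus SOX2 (2.43 ± 0.32, adjusted p = 0.000193), miniSOX minus FNV (1.70 ± 0.36, adjusted p = 0.00665), FNV minus NTC (1.12 ± 0.33, adjusted p = 0.0229) and SOX2 minus NTC (-1.31 ± 0.33, adjusted p = 0.0135).

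Over these 4 differences, the members gave 2 higher, 1 lower and 5 not passing in FNV minus SOX2 (20.8% of all genes, 10.7% higher and 10.1% lower). They gave 1 higher, 0 lower and 7 not passing in miniSOX minus FNV (11.9% of all genes, 5.73% higher and 6.19% lower). They gave 2 higher, 3 lower and 3 not passing in FNV minus NTC (25.8% of all genes, 13.4% higher and 12.4% lower), and 1, 2 and 5 in SOX2 minus NTC (18.8% of all genes, 9.82% higher and 9.01% lower). Sox13 passed in all 4 and was the only member to do so. FNV minus SOX2 kept its call in all 12 fits with a library left out (2.19 to 2.67), and within the first set it was 2.94 (adjusted p = 5.29e-05). The difference for FNV minus NTC had an adjusted p of 0.104 without FNV SL replicate 2, 0.0843 without NTC SL replicate 2 and 0.0517 without NTC 2i replicate 1. SOX2 minus NTC had 0.0738 without SOX2 SL replicate 2 and 0.0594 without NTC SL replicate 1, and the change in SOX2 itself was -0.65 (adjusted p = 0.11) without SOX2 SL replicate 2. With no set term FNV minus SOX2 was the only one of the 4 past the threshold (adjusted p = 0.00346), and the change in SOX2 was -0.58 (adjusted p = 0.193).

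Between lines, miniSOX in SL held less Sox13 RNA than FNV (-2.63 ± 0.31, adjusted p = 8.58e-05), SOX2 (-3.77 ± 0.31, adjusted p = 2.47e-06) and NTC (-3.64 ± 0.31, adjusted p = 3.5e-06), and with no set term these held as well, with adjusted p of 0.00239, 5.69e-05 and 8e-05. FNV was lower in SL than SOX2 (-1.14 ± 0.26, adjusted p = 0.00703) and NTC (-1.01 ± 0.26, adjusted p = 0.00991). Without FNV SL replicate 2 these were -0.98 (adjusted p = 0.0717) and -0.86 (adjusted p = 0.0853), without SOX2 SL replicate 2 the value against SOX2 was -0.90 (adjusted p = 0.0769), and without NTC SL replicate 2 that against NTC was -0.92 (adjusted p = 0.067). With no set term the adjusted p was 0.0581 against SOX2 and 0.0684 against NTC.

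In 2i the order was another. Sox13 was higher in FNV than in SOX2 (1.29 ± 0.19, adjusted p = 0.000162), with 1.80 in the first set and 0.78 (adjusted p = 0.0501) in the second. It was lower in SOX2 than in NTC (-1.19 ± 0.20, adjusted p = 0.000674), with -1.26 and -1.24 in the sets. FNV against NTC did not pass (0.10 ± 0.20, adjusted p = 0.738), with 0.54 (adjusted p = 0.0278) in the first set and -0.46 (adjusted p = 0.162) in the second. MiniSOX was lower than FNV (-0.93 ± 0.24, adjusted p = 0.0325) and NTC (-0.83 ± 0.26, adjusted p = 0.0308). The call against FNV ended without FNV replicate 1 or either miniSOX library (adjusted p up to 0.196) and with no set term (adjusted p = 0.415), and that against NTC without NTC p31 or either miniSOX library (adjusted p up to 0.202) and with no set term (adjusted p = 0.447).

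Sox15, whose product can stand beside OCT4 like SOX2, stayed low and showed little order. It had 49, 33, 67 and 53 in FNV, 47 and 46 in miniSOX and 34, 20, 35 and 26 in SOX2, against 62, 44 and 14 in NTC, all in 2i. Those of SL were 26 and 67 in FNV, 32 and 39 in miniSOX and 34 and 25 in SOX2, against 119 and 90 in NTC. NTC in SL was the only group whose libraries all lay above those of the other 7. The gene was lower in SOX2 than in NTC in SL (-1.79 ± 0.56, adjusted p = 0.0437) and lower in 2i than in SL in NTC (-1.52 ± 0.52, adjusted p = 0.0457). The SOX2 against NTC call ended when any of its 4 libraries was left out (adjusted p up to 0.203) and with no set term (adjusted p = 0.0655), and the medium change ended without NTC 2i replicate 2, NTC p31 or either NTC SL library (adjusted p up to 0.233). In 2i, FNV against NTC was 0.55 ± 0.43 (adjusted p = 0.35), and SOX2 against NTC was -0.23 ± 0.43 (adjusted p = 0.747), or -1.06 (adjusted p = 0.0438) without NTC p31, whose value of 14 is the lowest of all. Mpdu1, which overlaps Sox15 on the opposite strand, shares 1 of its 831 words.

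Of 12 further Sox genes looked up, 3 are in the table: Sox3, Sox6 and Sox9. Sox3, the other subgroup B1 gene found, had 1 to 2 in FNV and 2 and 2 in miniSOX in 2i, against 2 to 17 in SOX2 and 7 to 44 in NTC. Sox6, of subgroup D with Sox13, had 109 to 220 in FNV and 47 to 93 in SOX2 in 2i, and it was higher in FNV (1.06 ± 0.17, adjusted p = 0.00038), as Sox13 was. In the second set alone the Sox6 value was 0.96 (adjusted p = 0.0578). In SL Sox6 did not pass in FNV against SOX2 (0.544, adjusted p = 0.1275), while Sox13 was lower (-1.14, adjusted p = 0.00703). Sox9 stayed at 23 or below in all libraries.

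Factors and targets that work with SOX2 moved unevenly between FNV and SOX2. Of all genes, 12.4% were higher in FNV and 12.9% lower in 2i, and 10.2% were higher and 11.2% lower in SL. Of 12 pluripotency partner factors 0 were higher in FNV in 2i, 7 were lower and 5 did not pass (median log2 change -0.46, against -0.01 over all genes), and in SL 6 were higher, 1 was lower and 5 did not pass (median 0.65, against 0 over all genes). Nr0b1, a nuclear receptor that restrains OCT4, had 0 to 11 in FNV against 133 to 301 in SOX2 in 2i (-5.74 ± 0.53, adjusted p = 3.06e-06) and was lower in SL too (-5.13 ± 0.75, adjusted p = 0.000302). Klf2, a naive pluripotency factor, was lower in FNV in 2i (-1.14 ± 0.16, adjusted p = 0.000161) and higher in SL (0.85 ± 0.23, adjusted p = 0.0177), though not without FNV SL replicate 2 or SOX2 SL replicate 2 (adjusted p up to 0.205). Of 9 OCT4-SOX2 target genes, 3 were higher, 2 lower and 4 did not pass in 2i, and in SL 4 were higher, 0 lower and 5 did not pass. Fgf4, a classic target of the pair, was lower in FNV in 2i (-0.43 ± 0.10, adjusted p = 0.00619) and higher in SL (0.65 ± 0.14, adjusted p = 0.00482). Neither call held with no set term (adjusted p = 0.317 and 0.298). Fgf4 in FNV against NTC was 0.0063 (adjusted p = 0.975) in 2i and 0.79 (adjusted p = 0.000855) in SL, the latter not held with no set term (adjusted p = 0.159).

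Endoderm genes, the usual setting of SOX17, were higher in FNV than in SOX2 in 2i for 6 of 11, lower for 1 and not passing for 4 (median 0.45), where 12.4% of all genes were higher and 12.9% lower. In miniSOX against SOX2 in 2i, also with high Sox17 RNA, 1 of the 11 was higher, 1 lower and 9 did not pass (7.32% of all genes higher and 7.57% lower). Gata6, a regulator of primitive endoderm, had 251 to 408 in FNV against 40 to 94 in SOX2 in 2i (2.37 ± 0.31, adjusted p = 6.23e-05). Its SL values were 0 and 1 in FNV, against 108 and 165 in SOX2 (-6.57 ± 0.43, adjusted p = 2.57e-07), in the medium where Sox17 RNA in FNV was the higher. In SL 0 of the 11 endoderm genes were higher in FNV, 4 were lower and 7 did not pass (10.2% of all genes higher and 11.2% lower).

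Neural genes known downstream of subgroups B1 and C gave 1 higher, 3 lower and 4 not passing of 8 in FNV against SOX2 in 2i. Their median was -0.05, against -0.01 over all genes, of which 12.4% were higher and 12.9% lower. The gene shown next had the smallest adjusted p of the list. Tubb3, a neuronal tubulin and a known SOX11 target, had 12 to 40 in FNV against 156 to 571 in SOX2 in 2i (-4.09 ± 0.30, adjusted p = 4.36e-07), and 1981 and 2028 against 1284 and 1521 in SL (0.52 ± 0.42, adjusted p = 0.429). Of 7 TCF/LEF and Wnt genes, whose activity SOX13 is known to modulate, 1 was higher in FNV in 2i, 2 were lower and 4 did not pass (median 0.268). In SL 2 were higher, 1 was lower and 4 did not pass (median -0.325), where 10.2% of all genes were higher and 11.2% lower. Tcf7, a TCF factor, was lower in FNV in 2i (-0.81 ± 0.11, adjusted p = 8.14e-05) and higher in SL (0.69 ± 0.15, adjusted p = 0.00537). Tcf7 thus ran opposite to Sox13, while the medians, mostly of genes that did not pass, had the signs of Sox13. In FNV against NTC the medians were -0.952 in 2i and 0 in SL, where Sox13 had 0.105 and -1.013. A link between these genes and Sox13 was not tested.

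Markers of other cell types moved with some of these groups. In FNV against SOX2 in 2i, 12.4% of all genes were higher and 12.9% lower. Of 11 trophectoderm genes, 6 were higher in FNV than in SOX2 in 2i, 1 was lower and 4 did not pass, with summed levels of 5548 to 7683 in FNV, 2847 to 2983 in miniSOX, 867 to 1766 in SOX2 and 1287 to 2993 in NTC. In SL the sums were 2507 to 2534 in FNV, 18426 to 18539 in miniSOX, 1710 to 2605 in SOX2 and 11072 to 11196 in NTC. Cdx2, the defining factor, had 217 to 452 in FNV in 2i and 0 to 2 in all SL libraries, and Krt8, a keratin, reached 8024 and 8269 in miniSOX in SL. Of 10 fibroblast or feeder genes, 3 were higher in FNV than in SOX2 in 2i, 1 lower and 6 did not pass, and their sums stayed between 154 and 354 in 2i and between 255 and 2017 in SL, highest in miniSOX. The part of these markers in the Sox values was not tested.

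Over the 8 group means, the genes that ran most like each member were found by Pearson's r on the log2 scale. Names that start with Gm or hold Rik were left out, and only genes whose highest group mean reached 50 and whose log2 means had an SD of 0.5 or more entered. With 8 groups that share lines and media this describes the pattern and nothing more. Sox2 was matched by A2m (0.979), Wdr20rt (0.964) and Ntn1 (0.958), and Sox17 by Gdpd5 (0.984), Barx1 (0.979) and Timp3 (0.977). Sox21 was matched by Fancg (0.974), Slc11a1 and B9d2 (both 0.949), with Fancg at 69 to 120 in FNV, 151 to 287 in SOX2 and 201 to 625 in NTC. Sox4 was matched by Spry4 (0.992), an inhibitor of receptor tyrosine kinase signalling, which had 15 to 28 in SOX2 in 2i, against 987 and 992 in SOX2 in SL. Sox11 was matched by Myb (0.988), Sox12 by Calca (0.989), Sox13 by Atp12a (0.951) and Sox15 by Slc22a30 (0.9), the lowest of the 8 best values. None of the named genes is a Sox gene or a neighbour of the member it matched.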

How the data were processed

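The assay was poly(A) RNA sequencing of 21 libraries of the mouse line 2TS22C, per the labels' protocols. The submitters' processing notes name RSEM, Bowtie2 2.0 and mm10. The deposited table holds whole numbers already normalized by the authors, entered here with the unit score: sorted values of any pair of libraries differ by at most 3, and 66.3% of ranks are identical in every library. Normalization tool, strand use and depth are unknown. Since all genes pass 20 in 2 or more libraries, no further filter was set, and all 8 members were kept.

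Columns were matched to samples by name. The 5 p21 and p31 columns name a group only. FNV and SOX2 both have p21 and p31, NTC has p31, and no label says what the prefixes mark. The model was limma 3.58.1 in R 4.3.3 (intensity trend, robust) on log2(value + 1), with 8 groups and a set term over all 21 libraries, leaving 12 residual degrees of freedom. P-values are two-sided and adjusted over 16443 genes. Adding 1 lowers the folds of low genes, and in SL the set term, estimated in 2i, can raise or lower those of miniSOX. The planned count test was replaced by limma, the stated fallback, because the values are not counts. The members, the 8 gene lists and the rules for named genes were chosen with earlier results of these data known. Named genes were the 8 members, the 3 genes most like each, up to 4 genes per list with the smallest adjusted p in FNV against SOX2 in 2i, and genes beside a member. The text gives some of them. Sequence of Sox17 is not reported here. Scripts were tested on simulated data. All 16443 identifiers were found in GENCODE M21, 16364 under the same symbol. Alternatives were pseudocounts of 0.1 and 10, a mean of at least 50, centring on the median log ratio, no set term, single sets, the compared libraries alone, replicates 1 and 2 averaged, a replicate block, and each library left out. Figures were drawn with matplotlib 3.10.9.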

Additional observations from a re-analysis of the deposited data

Results flagged for a closer look

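Among groups of 4 libraries, Sox21 in FNV in 2i had 1 library far from the rest, p31 at 135 against 21 to 27. A gap just past the cut of this flag appears by chance in about 1 of 20 groups, and 16 groups of 4 were examined. The gap here was larger, at 0.947 of the range of the 4 values. These were not log values and come from both sets, so that rate does not describe this gap.

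The difference between media itself differed between lines in 12 tests. For FNV minus NTC the log2 difference was -1.65 for Sox2, 2.17 for Sox21, -1.37 for Sox4, -1.20 for Sox12 and 1.12 for Sox13. For SOX2 minus NTC it was 2.09 for Sox17, at values of 0 to 6, then -1.76 for Sox4 and -1.31 for Sox13. For FNV minus SOX2 it was -2.68 for Sox17, 3.71 for Sox21 and 2.43 for Sox13, and for miniSOX minus FNV it was 1.70 for Sox13. With replicates 1 and 2 averaged, 0 of these 12 passed. For Sox21 the FNV minus NTC call ended without any of 8 of its 11 libraries, replicates 1 and 2 of FNV and NTC in both media (adjusted p up to 0.103), with no set term (adjusted p = 0.162) and with a pseudocount of 10 (adjusted p = 0.247).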

How the results depend on the processing

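Sox17 in FNV and miniSOX against SOX2 and NTC, and Sox2 and Sox21 in FNV and miniSOX against NTC in 2i, kept their direction and their call with the pseudocount changed, a mean of at least 50, centring, no set term, the second set alone (run in 2i only), the replicate block, and replicates 1 and 2 averaged. The sign of a call turned in 1 case: Sox12 in FNV against NTC in 2i was 0.0545 in the second set alone.

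Averaging replicates 1 and 2 lowered the member counts most, and the cause was not tested. Fewer residual degrees of freedom remain in that fit, and the spread between replicates 1 and 2 no longer enters it. In 2i the counts were 1 in SOX2 against NTC, 2 in FNV against SOX2, 1 in miniSOX against SOX2 and 0 in miniSOX against FNV. In SL they were 2 in FNV against NTC, 2 in miniSOX against NTC, 0 in SOX2 against NTC, 1 in FNV against SOX2, 1 in miniSOX against SOX2 and 0 in miniSOX against FNV. For 2i against SL they were 3 in FNV, 3 in miniSOX, 1 in SOX2 and 0 in NTC, and 0 in each of the 4 differences between lines. Of all genes, FNV against SOX2 in 2i then called 465, against 4150 as reported, and with no set term miniSOX against FNV in 2i called 276, against 1260.

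The second set alone gave 2 in FNV against SOX2, 2 in miniSOX against SOX2 and 0 in miniSOX against FNV. With no set term the counts were 0 in miniSOX against FNV in 2i, 3 in FNV against NTC, 0 in SOX2 against NTC and 3 in FNV against SOX2 in SL, 3 for the media in SOX2, and 1, 0 and 0 for FNV minus NTC, SOX2 minus NTC and miniSOX minus FNV. MiniSOX against FNV in 2i, 1 as reported, gave 2 with a mean of at least 50, 2 with centring and 0 with the compared libraries alone, which gave 2 for the media in NTC. The first set alone gave 5 for SOX2 minus NTC and 5 for FNV minus SOX2, and a pseudocount of 10 gave 2 for miniSOX minus FNV. A pseudocount of 0.1 also ended the Sox11 calls in FNV against NTC (adjusted p = 0.0609) and against SOX2 (adjusted p = 0.176) in 2i and between media in SOX2 (adjusted p = 0.183). The cause was not tested.

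Replicates 1 and 2 share only a number: deviations of same-numbered libraries correlated between -0.0917 and 0.0319 over 12 pairs of groups. The p21 and p31 prefixes that FNV and SOX2 share in 2i gave 0.109, for 1 pair. With the number or prefix as a block, miniSOX against FNV in 2i gave 2 members, with Sox12 added. Sox4 in SOX2 against NTC in SL and Sox15 between media in NTC were no longer called.

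With each library left out in turn, the members called in 2i were 5 to 6 in FNV against NTC, 3 to 6 in miniSOX against NTC, 3 to 4 in SOX2 against NTC, 5 to 7 in FNV against SOX2, 3 to 4 in miniSOX against SOX2, 0 to 3 in miniSOX against FNV. In SL they were 3 to 4 in FNV against NTC, 4 to 4 in miniSOX against NTC, 0 to 2 in SOX2 against NTC, 3 to 4 in FNV against SOX2, 4 to 4 in miniSOX against SOX2, 1 to 2 in miniSOX against FNV. Between media they were 6 to 6 in FNV, 5 to 5 in miniSOX, 2 to 5 in SOX2, 2 to 4 in NTC, and for the differences 2 to 5 for FNV minus NTC, 1 to 4 for SOX2 minus NTC, 3 to 4 for FNV minus SOX2, 1 to 2 for miniSOX minus FNV. A fit that leaves a group with 1 library assumes it to vary like the others. Depth is unknown, and values under about 20, as for Sox21 in SL and Sox11 in 2i, limit what these changes can show.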
